A study of Mus musculus with 18 samples.

Results

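WT hepatocytes treated with TNFa were compared with WT hepatocytes treated with TGFb, across all genes of the deposited table. The members are the 6 libraries whose labels give the genotype WT and either cytokine, 3 with TNFa and 3 with TGFb, of 18 libraries in all. The cells came from livers of WT mice without tumors, age-matched to mice with a knockout of Mtdh, and were treated after collection. Each group has 3 biological replicates per the series' design text, and whether these were separate mice is not given. The p-values therefore measure a spread between libraries within groups, estimated over all 18 libraries. The other 12 libraries hold TNFa and TGFb treated hepatocytes of the Mtdh knockout (KO) and hepatocytes of both genotypes given conditioned medium (CM) from Kupffer cells that had received Py8119-EVPs. No untreated hepatocytes were analysed, so every difference below is TNFa set against TGFb, and it cannot be told apart which cytokine moved a gene. The labels give no dose, treatment time, strain or sex.

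TNF is a cytokine of inflammation that binds the receptors encoded by Tnfrsf1a and Tnfrsf1b. Through the adaptors TRADD, TRAF2 and RIPK1 it activates the IKK kinases, which release NF-kappaB into the nucleus, where it switches on chemokines, adhesion molecules and its own inhibitors IkappaBalpha (Nfkbia) and A20 (Tnfaip3). TGF-beta binds a receptor pair encoded by Tgfbr2 and Tgfbr1 that phosphorylates SMAD2 and SMAD3, which join SMAD4 on target genes such as Smad7, Skil, Pmepa1 and Ccn2. In the liver TGF-beta is known for growth arrest of hepatocytes, matrix deposition and a shift of epithelial cells towards mesenchymal traits. Hepatocytes secrete most plasma proteins, make bile acids and urea, and hold the cytochrome P450 enzymes.

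The 200 bases before the start of transcription, from the RefSeq promoter table of build GRCm38.p6, are printed for 3 genes that rose with TNFa, chosen in order of p among the described genes of the TNF, NF-kappaB and chemokine lists whose window holds the NF-kappaB pattern (GGG, any 3 bases, then TTCC) on either strand. They lie at chr5:90891045-90891244 on the plus strand for Cxcl1, chr10:19011964-19012163 on the minus strand for Tnfaip3 and chr3:107760470-107760669 on the minus strand for Csf1. Capitals mark matches to the pattern, and the 2 matches nearest the start of Cxcl1 overlap by all but 1 base of each.
Cxcl1: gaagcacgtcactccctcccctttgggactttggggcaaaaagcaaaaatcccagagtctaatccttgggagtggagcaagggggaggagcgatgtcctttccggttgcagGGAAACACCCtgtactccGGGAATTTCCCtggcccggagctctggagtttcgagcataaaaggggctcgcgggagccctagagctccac
Tnfaip3: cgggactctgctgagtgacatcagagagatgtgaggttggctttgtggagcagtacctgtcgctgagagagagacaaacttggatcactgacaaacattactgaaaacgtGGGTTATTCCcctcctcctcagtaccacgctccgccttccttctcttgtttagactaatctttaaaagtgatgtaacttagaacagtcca
Csf1: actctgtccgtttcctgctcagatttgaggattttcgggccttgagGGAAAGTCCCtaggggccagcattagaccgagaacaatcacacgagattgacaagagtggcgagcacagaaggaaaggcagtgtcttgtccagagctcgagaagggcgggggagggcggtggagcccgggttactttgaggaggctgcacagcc
The first base of a match lay 89, 71 and 70 bases before the start in Cxcl1, 90 bases before it in Tnfaip3, at 1 of 2 starts listed for that gene, and 154 bases before it in Csf1. Of 32851 RefSeq promoters of 250 bases before to 50 bases after the start, 5.56% hold the pattern, so a match describes these letters and does not show a bound site.

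The normalized values of a library summed to 21590463 to 22971618 with TNFa and 24196810 to 24325503 with TGFb. They came from an estimated 28441000 to 29965000 reads with TNFa and 19429000 to 23702000 with TGFb. A normalized value is a read count divided by a factor of its library, as deposited. Alb alone took 6.15% to 6.25% of all values with TNFa and 7.44% to 7.93% with TGFb, and 30 plasma protein genes took 10.3% to 10.6% and 12.9% to 13.5%, as hepatocytes are known to make these proteins. Mitochondrially encoded genes took 5.73%, 2.97% and 5.81% with TNFa, against 4.65%, 5.34% and 4.30% with TGFb, so TNFa WT 2 stood apart. Mtdh averaged 12831 ± 379.6 with TNFa and 13399 ± 459 with TGFb in WT libraries, while KO libraries held 719.6 ± 126 with TNFa and 959 ± 22.6 with TGFb (mean ± SD, n = 3 each). Markers of other liver cells were low but not absent. The 24 Kupffer cell and macrophage markers summed to 6814 to 7725 with TNFa, against 5696 to 6317 with TGFb, with Aif1 at 0 in all 6 libraries. The 20 sinusoidal endothelial markers summed to 3886 to 4385 with TNFa, against 4580 to 4892 with TGFb, and 20 stellate cell and fibroblast markers to 1943 to 2154, against 1604 to 1706, with Acta2 and Ngfr at 0. The 15 cholangiocyte markers summed to 8744 to 10275 with TNFa, against 9944 to 10468 with TGFb. Neutrophil markers (8 of 12 listed genes had values, Ly6g and Retnlg at 0) summed to 439.9 to 687 with TNFa and 339 to 442 with TGFb. Lymphocyte markers (15 of 18 listed genes had values, Nkg7, Ncr1 and Gzmb at 0) summed to 83.8 to 173 with TNFa and 117 to 141 with TGFb. In RNA from mixed cells, fewer cells of a type and less RNA per cell cannot be told apart.

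Many genes separated the cytokines, more of them lower with TNFa than higher. Of 14455 genes tested with limma on log2(value + 1), 771 (5.33%) were higher with TNFa and 1165 (8.06%) were lower at an adjusted p below 0.05, here called rose and fell. The counts of every gene list below stand against these shares of all genes. By at least 2-fold, 205 rose and 266 fell, and by at least 4-fold 82 rose and 99 fell. The median size of a called difference was 0.65 on the log2 scale. The libraries of both groups did not overlap for 1894 of the 1936 called genes, and the share over all tested genes is not given here. Call and separation rest on the same values, so separate groups of called genes below are description and no further support. When all libraries were set to 1 common total instead, 1366 genes rose and 873 fell, so higher calls made up 61.0% in place of 39.8%. That scaling moved the median of all genes to 0.11 log2, from -0.004 as deposited, and differences below are relative to the deposited scaling. Correlations across genes were 0.945 to 0.956 between TNFa libraries, 0.946 to 0.954 between TGFb libraries and 0.927 to 0.945 between the groups. For 3978 genes (27.5%) the 95% interval of the difference lay within 0.5 log2 of 0.

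**Figure D1:**
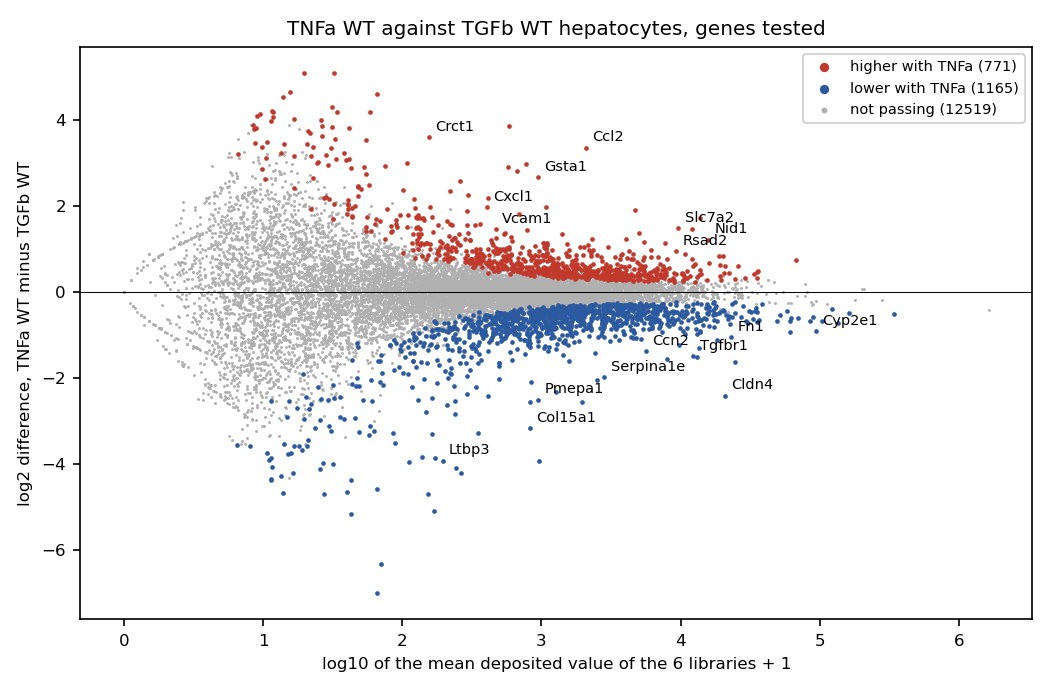
Each point is 1 of 14455 genes, with the log10 of its mean normalized value over the 6 libraries on the horizontal axis and the fitted log2 difference, TNFa WT minus TGFb WT, on the vertical axis. Red marks the 771 genes that rose with TNFa, blue the 1165 that fell and grey the rest, with Ccl2 (3.36 ± 0.17) among the abundant rises and Cldn4 (-2.41 ± 0.09) among the abundant falls.

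The largest rises and falls described first were taken from genes averaging 50 or more over the 6 libraries whose groups did not overlap, so their separation was fixed by that choice. Ccl2, the chemokine that draws monocytes, had normalized values of 3960.3, 3132 and 4236 with TNFa, against 319, 348 and 435 with TGFb (log2 difference 3.36 ± 0.17, adjusted p = 2.6e-14, ± standard error). Every TNFa library held at least 7 times the highest TGFb value. Atp13a4, a P-type ATPase, had 1305, 1447 and 1350 with TNFa, against 228, 172 and 135 with TGFb (log2 difference 2.97 ± 0.18, adjusted p = 5.2e-13). Adgrg2, an adhesion receptor coupled to G proteins, had 1108, 979 and 1424 with TNFa, against 167, 237 and 108 with TGFb (log2 difference 2.82 ± 0.23, adjusted p = 3.0e-10). Both are membrane proteins. Crct1 and Ivl (involucrin), which belong to the cornified envelope of stratified epithelia, differed by 3.60 ± 0.40 and 3.002 ± 0.44 log2. Sprr1a, another cornified envelope gene, was chosen after its values were seen and had 25540.4, 19093 and 18766 with TNFa, against 6657, 5681 and 6770.3 with TGFb (log2 difference 1.72 ± 0.12, adjusted p = 1.3e-11). B4galt6, which makes lactosylceramide, had 628, 688 and 704 with TNFa, against 149.9, 178 and 117 with TGFb (log2 difference 2.19 ± 0.19, adjusted p = 1.1e-09). Neurl3, a ubiquitin ligase, differed by 2.26 ± 0.20 log2, Cd55, which disarms complement on the cell surface, by 2.74 ± 0.57, and Arg2, the mitochondrial arginase, by 2.92 ± 0.61. The macrophage scavenger receptor Msr1 had 197, 164 and 225 with TNFa, against 35.7, 35.8 and 61.0 with TGFb (log2 difference 2.15 ± 0.26, adjusted p = 4.7e-07), and the lectin Clec4e differed by 1.97 ± 0.24. Gsta1, a glutathione transferase with a near-identical copy in Gsta2, differed by 2.68 ± 0.25, and Gvin2, of the interferon-inducible giant GTPases, which also have close copies, by 1.99 ± 0.33, so reads may have been split between copies.

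The largest falls took in genes of unlike roles, several of them close to 0 with TNFa. Mroh4 was listed at 0 in the 3 TNFa libraries and at 162, 113 and 115 with TGFb. Hr, the corepressor hairless, had 31.0, 0 and 24.5 with TNFa, against 281, 335 and 343 with TGFb (adjusted p = 1.7e-05). Bex2 had 8.32, 10.6 and 12.3 with TNFa, against 309, 259.9 and 310.2 with TGFb (log2 difference -4.70 ± 0.53, adjusted p = 1.1e-07). These 3 genes stayed under 40 in every TNFa library. Lmcd1, a LIM domain cofactor, had 16.6, 28.8 and 35.3 with TNFa, against 469.6, 368 and 543 with TGFb (log2 difference -4.09 ± 0.34, adjusted p = 3.1e-10). Vill, a villin-like actin binder, had 31.8, 31.9 and 16.1 with TNFa, against 536, 399 and 557 with TGFb (log2 difference -4.22 ± 0.53, adjusted p = 7.2e-07). Both were low but present in every TNFa library. Ret, the receptor of glial-derived ligands, had a log2 difference of -3.97 ± 0.89, and Arc, a synaptic immediate-early gene, of -3.83 ± 0.58. Psg22, of the pregnancy-specific glycoprotein family with close copies, had 141, 65.3 and 164 with TNFa, against 1499, 1867 and 1993 with TGFb (log2 difference -3.94 ± 0.37, adjusted p = 3.5e-09). Tenm4, a teneurin adhesion protein, had 48.1, 61.8 and 85.9 with TNFa, against 571, 633 and 688 with TGFb (log2 difference -3.29 ± 0.38, adjusted p = 1.8e-07). Emp1, an epithelial membrane protein, and Prg4, the lubricin gene, were chosen after their values were seen. Emp1 had 437, 334 and 509.8 with TNFa, against 1958, 2190.3 and 2179 with TGFb (log2 difference -2.32 ± 0.19, adjusted p = 2.8e-10). Prg4 had 569.8, 507 and 593 with TNFa, against 3437, 3814 and 2779.8 with TGFb (log2 difference -2.57 ± 0.15, adjusted p = 2.1e-13).

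Most TNF receptors and adaptors did not pass the test, while the NF-kappaB inhibitors Nfkbia and Tnfaip3 rose with TNFa. Of 17 receptor and adaptor genes tested, 3 rose, 1 fell (0 without TGFb WT 1 or TGFb WT 3 or TNFa WT 2, and 0 at equal totals) and 13 did not pass (median 0.03 log2). The receptor Tnfrsf1a had 1104, 972 and 1335 with TNFa, against 949, 1428 and 990.5 with TGFb, a difference of 0.03 ± 0.15 with a 95% interval of -0.28 to 0.34, unadjusted for the number of genes as are the others given here. Tnfrsf1b, the other receptor, had 1819.7, 1969 and 1977 with TNFa, against 2003, 2271 and 1939.9 with TGFb (95% interval -0.30 to 0.09). The groups overlapped for both receptors. The kinases Ripk1 and Map3k7 and the adaptor Tab2 had differences of 0.02 ± 0.11, 0.04 ± 0.11 and -0.04 ± 0.10 and did not pass, nor did Tradd (0.48 ± 0.24) and Traf2 (0.34 ± 0.16). Birc3, a ubiquitin ligase of the receptor complex that NF-kappaB also induces, had 2311, 2207 and 2193 with TNFa, against 1232, 1261 and 1434 with TGFb (log2 difference 0.78 ± 0.12, adjusted p = 1.4e-05). Ikbkb, the IKK kinase that marks IkappaB for destruction, had 1287, 1626 and 1399.9 with TNFa, against 987, 799 and 1018 with TGFb (log2 difference 0.62 ± 0.14, adjusted p = 0.0015). In Birc3 and Ikbkb the TNFa libraries were all above the TGFb libraries.

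Among 16 NF-kappaB subunits and inhibitors, 4 rose, 1 fell and 11 did not pass (median 0.26). Tnfaip3, the A20 enzyme that ends the signal and whose promoter letters are printed above, had 2792, 3023 and 3102 with TNFa, against 1486, 1743 and 1561 with TGFb (log2 difference 0.90 ± 0.10, adjusted p = 6.2e-08). Nfkbia, the inhibitor IkappaBalpha, had 1397, 1587 and 1583 with TNFa, against 1015, 898 and 796 with TGFb (log2 difference 0.76 ± 0.13, adjusted p = 7.4e-05). Nfkb2, the precursor of the p52 subunit, had 1153, 1132 and 1325 with TNFa, against 498, 744 and 821 with TGFb (log2 difference 0.83 ± 0.17, adjusted p = 0.00047). All 3 genes had separate groups, with ratios of means of 1.86, 1.69 and 1.75. Nfkbiz, an atypical IkappaB that acts in the nucleus, went the other way with 501, 449 and 476 with TNFa, against 736, 857 and 690.2 with TGFb (log2 difference -0.67 ± 0.14, adjusted p = 0.00086). Nfkbie, another IkappaB, rose by 1.39 ± 0.45, a call kept only without TGFb WT 1 among the fits that left out 1 library. The subunits Rela, Rel and Relb did not pass, with differences of -0.06 ± 0.14, -0.04 ± 0.13 and 0.26 ± 0.25. Nfkb1 differed by 0.31 ± 0.11 without overlap of the libraries and did not pass (adjusted p = 0.07). The deubiquitinases Cyld and Otud7b differed by 0.22 ± 0.09 and -0.06 ± 0.10, Tnip1 by 0.31 ± 0.19, Tnip2 by -0.65 ± 0.49, Bcl3 by 0.20 ± 0.26, Nfkbib by 0.26 ± 0.27 and Nfkbid by 0.85 ± 0.82, none of these 7 past the threshold.

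Effector and adhesion genes known from TNF responses were divided. Of 34 tested, 11 rose (7 without TGFb WT 3 or TNFa WT 3), 3 fell and 20 did not pass (median 0.52). Vcam1, an adhesion molecule for leukocytes, had 679, 654 and 737 with TNFa, against 200.2, 281 and 273 with TGFb (log2 difference 1.47 ± 0.17, adjusted p = 2.2e-07). Csf1, the growth factor of macrophages, had 1378, 1319 and 1672 with TNFa, against 622, 698 and 819 with TGFb (log2 difference 1.03 ± 0.13, adjusted p = 6.8e-07). Tnfaip2 had 555, 605 and 737 with TNFa, against 325, 275 and 326 with TGFb (log2 difference 1.03 ± 0.16, adjusted p = 1.3e-05). In these 3 genes, as in nearly all called genes, the groups were separate, with ratios of means of 2.74, 2.04 and 2.05. Il1rn, the antagonist of the interleukin-1 receptor, had 1857, 1976 and 2366 with TNFa, against 998, 844 and 1030.4 with TGFb (log2 difference 1.11 ± 0.12, adjusted p = 3.9e-08). Lif, a cytokine of the IL-6 family, was higher with TGFb, with 215, 243 and 255 with TNFa, against 1461, 1381 and 1414 with TGFb (log2 difference -2.58 ± 0.16, adjusted p = 1.2e-12). Il34, the other ligand of the Csf1 receptor, had 164, 129.8 and 182 with TNFa, against 400.2, 398 and 581 with TGFb (log2 difference -1.52 ± 0.28, adjusted p = 0.0002), so the ligands of that receptor differed in opposite directions. Pim1, a survival kinase, fell with a difference of -0.43 ± 0.10. Sod2, the mitochondrial superoxide dismutase, had 4799, 4083 and 4959 with TNFa, against 3920.2, 4147 and 3523 with TGFb and did not pass (adjusted p = 0.074), and neither did Ier3 (-0.12 ± 0.18) or Tifa (-0.47 ± 0.21).

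Chemokines had the highest median of the lists described here. Of 20 tested, 7 rose, 1 fell and 12 did not pass, with a median of 1.05 log2 against -0.004 for all genes. Cxcl1, which draws neutrophils, had 661, 605 and 661 with TNFa, against 179.7, 156 and 153 with TGFb (log2 difference 1.97 ± 0.17, adjusted p = 5.5e-10). Ccl7, encoded near Ccl2 and active on the same receptor, had 443, 346 and 318 with TNFa, against 56.1, 72.7 and 88.5 with TGFb (log2 difference 2.34 ± 0.29, adjusted p = 5.2e-07). Cxcl16, a transmembrane chemokine for T cells, had 1259, 1564 and 1529 with TNFa, against 725, 771 and 1034 with TGFb (log2 difference 0.79 ± 0.15, adjusted p = 0.00018). The groups were separate in all 3. Cxcl2, which draws the same cells as Cxcl1, had 335, 256 and 357 with TNFa, against 158, 209.8 and 126 with TGFb. Ccl6 had 46.1, 60.7 and 65.2 with TNFa, against 7.15, 13.1 and 0 with TGFb. Cxcl12, which holds CXCR4-bearing cells in tissue, was the member that fell, with 704, 712 and 856 with TNFa, against 2329, 1825 and 2117 with TGFb (log2 difference -1.46 ± 0.12, adjusted p = 3.2e-10). The chemokines that interferon-gamma induces did not pass, Cxcl9 with a 95% interval of -0.62 to 0.81 and Cxcl10 with -0.50 to 0.33. Ccl9, present at 996, 1175 and 1010.4 with TNFa, against 964, 844 and 932 with TGFb, and Ccl25, at 356, 568 and 374 with TNFa, against 365, 393 and 346 with TGFb, did not pass either. Ccl3, Ccl4, Ccl5, Cxcl5, Cxcl11 and Cxcl14 were under 100 in each of the 6 libraries and did not pass. Macrophage markers summed higher with TNFa, as given above. Of the 23 tested 5 rose and 1 fell, and 0 fell without TGFb WT 1 or without TNFa WT 3.

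Kupffer cells, the macrophages of the liver, are known to make chemokines too. Their markers went both ways. Clec4f, a defining Kupffer cell marker, fell, at 40.8, 60.0 and 10.7 with TNFa, against 117, 97.8 and 71.0 with TGFb (log2 difference -1.60 ± 0.46, adjusted p = 0.015), a call lost without TNFa WT 3 (log2 difference -0.90, adjusted p = 0.19) and without TGFb WT 1 (adjusted p = 0.076). Adgre1 (F4/80) had 441, 419 and 422 with TNFa, against 194, 179 and 88.5 with TGFb (log2 difference 1.55 ± 0.22, adjusted p = 6.6e-06), and Itgam, an integrin of myeloid cells, 130.3, 45.5 and 62.5 with TNFa, against 14.3, 15.5 and 13.7 with TGFb. Timd4 was at 17.4, 12.9 and 18.4 with TNFa and was listed at 0 in the 3 TGFb libraries. Cd68, Cd14 and Mpeg1, also markers of macrophages, did not pass at 0.26 ± 0.14, 0.21 ± 0.11 and 0.30 ± 0.10 log2. The part of these cells in the chemokine differences was not tested.

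**Figure D2:**
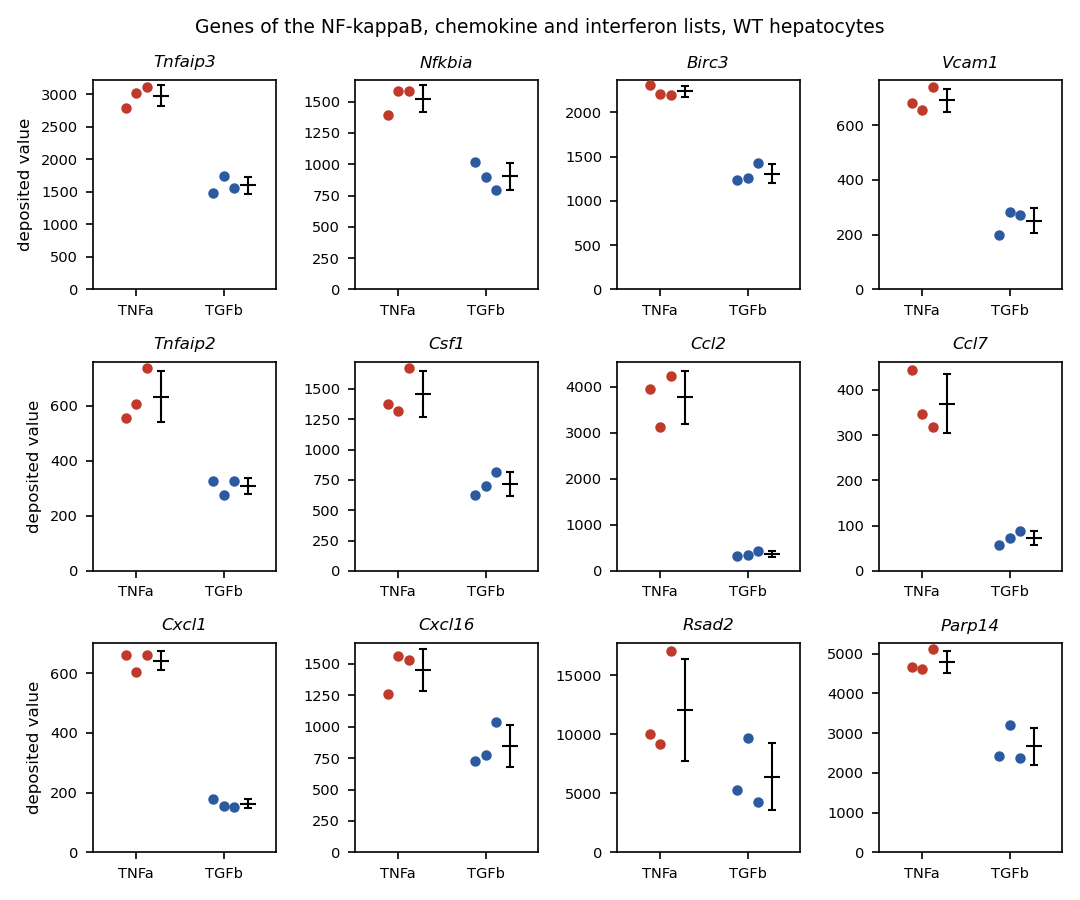
Normalized values of 12 genes of the NF-kappaB, chemokine and interferon lists in WT hepatocytes, with each library as a point, TNFa in red on the left and TGFb in blue on the right, and bars for the mean ± SD (n = 3 each). Vertical axes start at 0. The groups are separate in 11 panels, and in Rsad2 the TGFb library at 9664 lies above the TNFa library at 9179.8.

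Interferon-stimulated genes, whose products act in antiviral defense, were higher with TNFa where they passed. Of 35 tested, 24 rose (13 without TGFb WT 1 or TNFa WT 3) and 11 did not pass, with a median of 0.73 and every member above 0. The macrophage markers given above also summed higher with TNFa, and their part in these differences was not tested. Parp14, a mono-ADP-ribosyltransferase, had 4654, 4600.4 and 5120.1 with TNFa, against 2427, 3211 and 2371 with TGFb (log2 difference 0.86 ± 0.11, adjusted p = 1.2e-06). Usp18, which removes ISG15 and dampens the interferon receptor, had 4672, 5164 and 5793 with TNFa, against 2711, 3234 and 3111 with TGFb (log2 difference 0.79 ± 0.11, adjusted p = 2.4e-06). Rigi, the sensor of viral RNA, had 2227, 1942 and 2621 with TNFa, against 1073, 1381 and 1300.1 with TGFb (log2 difference 0.85 ± 0.12, adjusted p = 7.4e-06). In these 3 genes every TNFa library was above every TGFb library. Trim25, the ubiquitin ligase that activates it, had 8914, 7896 and 9326 with TNFa, against 5306, 5617 and 5705 with TGFb (log2 difference 0.65 ± 0.08, adjusted p = 9.2e-07), and Dhx58, its relative, differed by 0.83 ± 0.17. Each of these 5 genes had all TNFa libraries above all TGFb libraries. Rsad2 (viperin) had 10009, 9179.8 and 17049 with TNFa, against 5306, 9664 and 4298 with TGFb, with overlap (log2 difference 0.94 ± 0.20, adjusted p = 0.00081, or 0.093 in a fit of the 6 libraries alone). TGFb WT 2 was the TGFb library nearest to the TNFa group in Rsad2, Parp14 and Usp18. Of 20 genes of MHC class I and peptide loading, 4 rose (2 without TGFb WT 1 or TNFa WT 3) and 2 fell (0 without TGFb WT 2 or TGFb WT 3 or TNFa WT 2 and 1 without TNFa WT 1), against 6 and 0 at equal totals. Nlrc5, the activator of MHC class I genes, had 1208, 1265 and 1369.9 with TNFa, against 767, 801 and 735 with TGFb (log2 difference 0.74 ± 0.13, adjusted p = 0.00017). H2-K1, H2-D1 and Calr did not pass (-0.18 ± 0.10, 0.14 ± 0.09 and -0.14 ± 0.09), nor did Irf9 (0.27 ± 0.13), Ifih1 (0.32 ± 0.12) and Iigp1 (0.08 ± 0.12). Plscr1, a phospholipid scramblase that interferon induces, was chosen after its values were seen and had 6915, 7395 and 7742 with TNFa, against 1797, 1839.8 and 2290.0 with TGFb (log2 difference 1.90 ± 0.11, adjusted p = 2.3e-13).

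In the TGF-beta pathway both receptors of the ligand passed, in opposite directions, and 2 of 4 latent binding proteins fell with TNFa. Of 28 ligand and receptor genes, 6 rose (2 without TGFb WT 1 or TNFa WT 2), 7 fell and 15 did not pass (median -0.18). Tgfbr1, the type I receptor, had 6325, 6365 and 6613 with TNFa, against 17758, 17895 and 18811 with TGFb (log2 difference -1.50 ± 0.08, adjusted p = 2.6e-14). Its TGFb mean was 2.82 times the TNFa mean, and both groups were tight. Tgfbr2, the type II receptor that binds the ligand, had 1365, 1703 and 1331 with TNFa, against 840.3, 1074 and 1165 with TGFb (0.52 ± 0.14 log2, adjusted p = 0.008). This rise did not pass without TNFa WT 2 (adjusted p = 0.078) or TGFb WT 1 (adjusted p = 0.099). Acvr1, a type I receptor of activins and BMPs, had 1007, 871 and 793 with TNFa, against 1497, 1552 and 1658 with TGFb (log2 difference -0.82 ± 0.13, adjusted p = 2.1e-05). Bmpr2, a type II receptor, had 6762, 7063 and 7590.2 with TNFa, against 9607, 9746 and 10406 with TGFb (log2 difference -0.48 ± 0.11, adjusted p = 0.0023). Acvr2a, Bmpr1a and Tgfbr3 (betaglycan) did not pass (-0.24 ± 0.14, -0.01 ± 0.09 and 0.56 ± 0.22).

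Ltbp3, which tethers latent TGF-beta to the matrix, had 34.0, 18.2 and 19.2 with TNFa, against 321, 351 and 424 with TGFb (log2 difference -3.93 ± 0.39, adjusted p = 1.1e-08). Ltbp2, of the same family, had 9.83, 0 and 3.83 with TNFa, against 59.2, 70.3 and 107 with TGFb (adjusted p = 0.00039). Ltbp1 had 133, 206 and 64.9 with TNFa, against 135, 95.2 and 129 with TGFb and did not pass (95% interval -0.73 to 0.80). Ltbp2 and Ltbp3 were thus far lower in every TNFa library. Itgav, the integrin subunit that frees latent TGF-beta, had 41131, 38776 and 41856 with TNFa, against 29697, 29688 and 29453 with TGFb (log2 difference 0.45 ± 0.08, adjusted p = 0.00023), while its partners Itgb6 (-0.11 ± 0.26) and Itgb8 (-1.20 ± 1.45) did not pass. Among the ligands, Bmp6, which instructs hepcidin, had 69.2, 77.4 and 58.3 with TNFa, against 25.5, 13.2 and 13.7 with TGFb (1.96 ± 0.46 log2, adjusted p = 0.0029). Its groups did not overlap. Inhba, the activin A subunit, had 2726, 2752 and 2633 with TNFa, against 2658, 2734 and 2426 with TGFb and did not pass (95% interval -0.20 to 0.31). Tgfb1 had 43.9, 67.0 and 53.9 with TNFa, against 73.3, 46.7 and 84.7 with TGFb, with overlap, and did not pass. Gdf15 (0.07 ± 0.12) and Inhbe (-0.29 ± 0.25) did not pass.

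The feedback inhibitors Pmepa1, Smad7 and Skil were higher with TGFb, while other members of their list did not pass or went the other way. Of 24 genes of SMADs and feedback, 9 fell with TNFa (6 at equal totals), 2 rose (1 without TGFb WT 1 or TNFa WT 2) and 13 did not pass (median -0.38). Pmepa1, which sequesters receptor-activated SMADs, had 250.3, 295 and 299 with TNFa, against 1593, 1463 and 1763 with TGFb (log2 difference -2.51 ± 0.17, adjusted p = 4.7e-12). Smad7, the inhibitory SMAD, had 315, 276 and 335 with TNFa, against 880.0, 1067 and 835 with TGFb (log2 difference -1.58 ± 0.17, adjusted p = 7.3e-08). Skil (SnoN), a corepressor of SMAD targets, had 6099.8, 6196 and 5734 with TNFa, against 10033, 9879 and 10198 with TGFb (log2 difference -0.74 ± 0.08, adjusted p = 4.8e-08). By the ratio of means Pmepa1 was 5.70 times and Skil 1.67 times as high with TGFb, and none of the 3 inhibitors showed overlap. Ski, the relative of Skil, had 1254, 989.9 and 1143 with TNFa, against 1803, 1867 and 1684 with TGFb (log2 difference -0.67 ± 0.13, adjusted p = 0.00031), and Tgif1, another corepressor, differed by -0.37 ± 0.09. Smad3, a signal-carrying SMAD, had 2450.5, 2546 and 2527 with TNFa, against 1605, 1713 and 1810.3 with TGFb (log2 difference 0.55 ± 0.11, adjusted p = 0.00034), so it differed in the direction opposite to Smad7. Smurf1, a ubiquitin ligase of SMADs, also rose (0.40 ± 0.11). Smad2, the other, differed by -0.38 ± 0.09 (adjusted p = 0.004), a call lost at equal totals. Smad4 had a difference of 0.02 ± 0.11, Smad1 of 0.15 ± 0.13 and Smad5 of -0.02 ± 0.10, and these 3 did not pass. The BMP targets Id1, Id2 and Id3 did not pass (-1.46 ± 0.54, -0.06 ± 0.16 and -0.13 ± 0.14), and neither did Smad6 (-2.08 ± 0.94) or Bambi (-1.35 ± 0.58), which were under 150 in every library.

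Genes known to be induced by TGF-beta in epithelial and mesenchymal cells were divided as well. Of 44 tested, 12 fell with TNFa, 8 rose and 24 did not pass (median -0.16). Ccn2, the connective tissue growth factor, had 2555, 3550.3 and 3328 with TNFa, against 7780.1, 8517 and 8056 with TGFb (log2 difference -1.38 ± 0.11, adjusted p = 2.0e-10). S100a6, a calcium-binding protein, had 668, 789 and 895 with TNFa, against 2329, 2205 and 2611 with TGFb (log2 difference -1.61 ± 0.14, adjusted p = 1.0e-09). Junb, an AP-1 subunit, had 1603, 1662 and 1629 with TNFa, against 2686, 2664 and 2819.5 with TGFb (log2 difference -0.74 ± 0.10, adjusted p = 1.2e-06). The TGFb libraries were all higher in these 3. Actin-binding genes on the same list did not move as 1 group. Flna, a filamin, had 13814, 15738 and 15524 with TNFa, against 8244, 9271 and 9204 with TGFb (log2 difference 0.75 ± 0.10, adjusted p = 1.1e-06). Cald1, a caldesmon, had 18981, 20029.5 and 20419 with TNFa, against 12954, 12599.5 and 11496 with TGFb (log2 difference 0.68 ± 0.09, adjusted p = 3.3e-06). Tagln2, a transgelin, had 6024, 6072 and 6291 with TNFa, against 3702, 3775 and 4315 with TGFb (log2 difference 0.64 ± 0.09, adjusted p = 5.5e-06). These 3 rose with TNFa, Pdlim7 fell (-0.80 ± 0.20), and Tagln, Tpm1, Tpm2 and Cnn2 did not pass (-0.42 ± 0.62, 0.15 ± 0.09, 0.996 ± 0.44 and 0.87 ± 0.86). Itgb1 and Ahnak did not pass (-0.15 ± 0.09 and 0.26 ± 0.13).

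Matrix genes also went both ways. Of 37 collagen, matrix and crosslinking genes, 5 rose, 7 fell (4 without TGFb WT 1 or TNFa WT 2, and 4 at equal totals) and 25 did not pass, with a median of -0.07 that turned to 0.05 at equal totals. Fn1, fibronectin, which hepatocytes also secrete into plasma, had 15615, 13649 and 15501 with TNFa, against 31418, 33201 and 28068 with TGFb (log2 difference -1.05 ± 0.13, adjusted p = 5.8e-07). Col15a1, a basement membrane collagen, had 177, 178 and 139 with TNFa, against 1362, 1390.2 and 1732 with TGFb (log2 difference -3.18 ± 0.21, adjusted p = 3.0e-12). Col27a1, a fibrillar collagen, had 290.4, 326 and 335 with TNFa, against 1404, 1424 and 1273 with TGFb (log2 difference -2.10 ± 0.23, adjusted p = 4.5e-08). In these 3 matrix genes the TNFa libraries were all below the TGFb libraries. Lox, which crosslinks collagen, had 2855, 3051 and 3321 with TNFa, against 5189.8, 5668 and 6366 with TGFb (log2 difference -0.90 ± 0.13, adjusted p = 1.0e-05). All 4 were lower in every TNFa library. Nid1, the nidogen that links laminin to collagen in basement membrane, had 21104, 21715 and 23098 with TNFa, against 8595, 9828 and 10012 with TGFb (log2 difference 1.22 ± 0.09, adjusted p = 4.0e-11). Col4a1 had 1284, 1103 and 1017 with TNFa, against 686, 736 and 650.4 with TGFb (log2 difference 0.71 ± 0.12, adjusted p = 7.8e-05), so these basement membrane genes differed from Col15a1 in direction. Col18a1, Col12a1 and Lamc1 did not pass (-0.19 ± 0.09, 0.32 ± 0.11 and 0.08 ± 0.11). Stellate cell and fibroblast markers, given above, summed higher with TNFa, and their part in these differences was not tested.

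Of 17 genes of epithelial-mesenchymal transition, 2 rose, 4 fell (2 without TGFb WT 3 or TNFa WT 2) and 11 did not pass. Vim, vimentin, had 2026, 2183 and 2445 with TNFa, against 4406, 4495 and 4675 with TGFb (log2 difference -1.03 ± 0.13, adjusted p = 1.1e-06). Sox4, a transcription factor, had 1308, 1428 and 1686 with TNFa, against 2051, 2299 and 1949.8 with TGFb (log2 difference -0.51 ± 0.12, adjusted p = 0.0027). Hmga2, a chromatin protein of embryonic cells, was higher with TNFa, with 7567, 7525 and 9399 with TNFa, against 4041, 4023 and 4412 with TGFb (log2 difference 0.97 ± 0.11, adjusted p = 1.1e-07), and so was the repressor Zeb2, with 840.3, 824 and 692 with TNFa, against 422, 373 and 496 with TGFb (log2 difference 0.87 ± 0.15, adjusted p = 5.2e-05). Zeb1, Ets1 and Cdh2 (N-cadherin) did not pass (-0.27 ± 0.11, -0.01 ± 0.09 and -0.21 ± 0.09). The list thus held members higher with TNFa and members higher with TGFb. Of 29 junction and polarity genes, 7 fell and 5 rose (2 without TGFb WT 3 or TNFa WT 1 and 3 without TGFb WT 1 or TNFa WT 3). Cldn4, a claudin of tight junctions that is sparse in normal hepatocytes, had 6454, 6144 and 7059.7 with TNFa, against 33084, 34029.8 and 37676 with TGFb (log2 difference -2.41 ± 0.09, adjusted p = 2.8e-17). Its TGFb mean was 5.33 times the TNFa mean, and its adjusted p was the smallest among the genes named here. Ezr, which ties actin to the membrane, had 2914, 2829 and 3129 with TNFa, against 1314, 1468 and 1392 with TGFb (log2 difference 1.09 ± 0.09, adjusted p = 9.0e-10). The desmosome genes Dsg2, Dsc2, Dsp and Jup fell, with differences of -0.61 ± 0.08, -0.55 ± 0.10, -0.43 ± 0.09 and -0.65 ± 0.12, while the desmosomal plakophilin Pkp2 rose (0.30 ± 0.09). Ceacam1, an adhesion molecule of the bile canaliculus, had 972, 734 and 1111 with TNFa, against 1896, 1938 and 1767 with TGFb (log2 difference -1.01 ± 0.12, adjusted p = 5.1e-07). Krt8 and Krt18, the keratins of hepatocytes, had differences of -0.09 ± 0.11 and -0.00 ± 0.10 and did not pass, and neither did the ductal factor Sox9 (-0.21 ± 0.13) or Ctnnb1 (-0.03 ± 0.09).

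**Figure D3:**
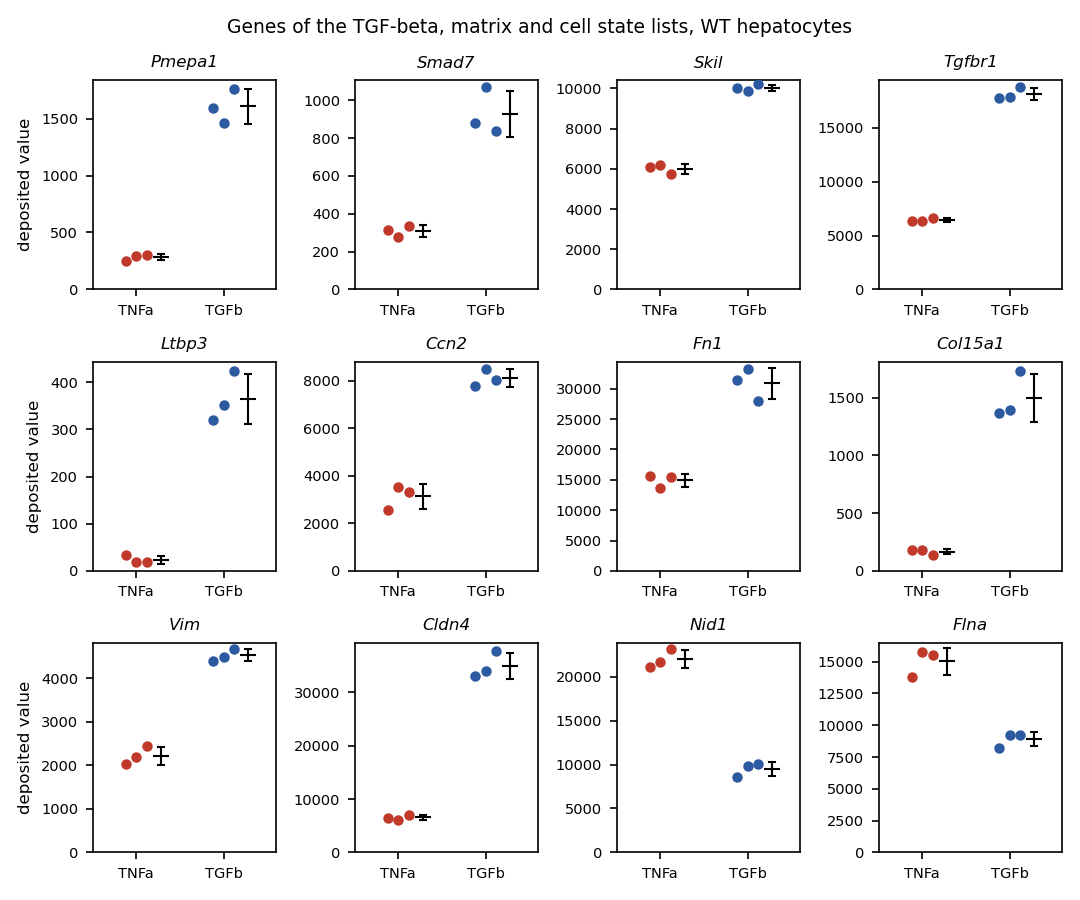
Normalized values of 12 genes of the TGF-beta, matrix and cell state lists in WT hepatocytes, with each library as a point, TNFa in red on the left and TGFb in blue on the right, and bars for the mean ± SD (n = 3 each). Vertical axes start at 0. The panels lie lower with TNFa in 10 genes, while Nid1 and Flna lie higher, and no panel shows overlap.

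Targets of YAP and TEAD, which share Ccn2 with the TGF-beta list, counted 5 falls and 1 rise (0 without TGFb WT 1 or TGFb WT 2 or TNFa WT 1 or TNFa WT 2 or TNFa WT 3) of 22. Gadd45a, a stress gene, had 589.7, 561 and 519 with TNFa, against 1249, 1352 and 1388 with TGFb (log2 difference -1.26 ± 0.12, adjusted p = 1.1e-08). Nt5e (CD73) had 3319.5, 3620.3 and 3227 with TNFa, against 5273, 5769.6 and 5425 with TGFb (log2 difference -0.70 ± 0.09, adjusted p = 5.7e-07), Igfbp3 a difference of -1.19 ± 0.19 and Crim1 of -0.53 ± 0.10. Ccn1, Dock5 and Amotl2 did not pass (0.08 ± 0.09, -0.05 ± 0.09 and -0.25 ± 0.10). The groups were separate in Gadd45a, Nt5e, Igfbp3 and Crim1.

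Acute-phase and other secreted proteins were mostly lower with TNFa where they passed. Of 27 acute-phase genes, 15 fell, 4 rose and 8 did not pass (median -0.44). Fgb, fibrinogen beta, had 23566, 21883 and 22055 with TNFa, against 37481, 35432 and 35738 with TGFb (log2 difference -0.69 ± 0.08, adjusted p = 3.6e-07). Fgg, fibrinogen gamma, had 18328, 13982 and 18399 with TNFa, against 29108, 27949 and 27207 with TGFb (log2 difference -0.74 ± 0.10, adjusted p = 1.2e-06). Itih3, an inhibitor chain that binds hyaluronan, had 4853, 4540.4 and 4295 with TNFa, against 7532, 7453 and 7514 with TGFb (log2 difference -0.72 ± 0.08, adjusted p = 1.0e-07). The TNFa libraries were all below the TGFb libraries in these 3. Steap4, a metalloreductase, had 884, 660.4 and 757 with TNFa, against 1842, 1481 and 1479 with TGFb (log2 difference -1.06 ± 0.12, adjusted p = 1.6e-07). Crp, the C-reactive protein, went the other way, with 23112, 23586 and 25858 with TNFa, against 13872, 14051 and 13020.5 with TGFb (log2 difference 0.82 ± 0.10, adjusted p = 2.0e-07). The other rises, named after their values were seen, were Saa3, Apcs and Lcn2, with log2 differences of 0.89, 0.75 and 0.49. Hpx (hemopexin), Cp (ceruloplasmin) and Mt1 did not pass (-0.17 ± 0.11, -0.03 ± 0.09 and 0.09 ± 0.11). Of 16 genes of IL-6 and STAT3 signaling, 14 did not pass, among them Stat3, Jak1 and the receptor subunit Il6st (-0.23 ± 0.09, -0.12 ± 0.09 and -0.13 ± 0.10). The 1 rise and 1 fall were 6.25% each, against 5.33% and 8.06% of all genes.

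Complement and coagulation genes counted 23 falls of 32 tested (median -0.44), and 9 did not pass. C4b, a complement protein, had 23274, 21349.7 and 23887 with TNFa, against 36964, 38026 and 38919.6 with TGFb (log2 difference -0.73 ± 0.09, adjusted p = 9.3e-07). Hc (C5) had 4047, 3757 and 3601 with TNFa, against 6136, 5768 and 5817 with TGFb (log2 difference -0.64 ± 0.09, adjusted p = 2.6e-06). C3, chosen after its values were seen, had 50351, 41566 and 49324 with TNFa, against 75600.2, 76979 and 72914 with TGFb (log2 difference -0.68 ± 0.12, adjusted p = 7.7e-05). All 3 complement genes were lower in every TNFa library than in any TGFb library. F11, a coagulation factor, had 829.7, 663 and 834 with TNFa, against 1549.7, 1979 and 1910.0 with TGFb (log2 difference -1.22 ± 0.14, adjusted p = 1.3e-07). F5 had 6655, 6404 and 6458 with TNFa, against 10727, 10248 and 10039.5 with TGFb (log2 difference -0.67 ± 0.08, adjusted p = 6.7e-07). F9 had 2041, 1659 and 2008 with TNFa, against 3486, 3509 and 3128 with TGFb (log2 difference -0.83 ± 0.10, adjusted p = 4.2e-07). Klkb1, the plasma prekallikrein, differed by -0.96 ± 0.11. In all 7 genes the TNFa libraries were below the TGFb libraries. Cfb, the alternative pathway factor, had 8883, 9305 and 9168 with TNFa, against 8673, 8325 and 8801 with TGFb and did not pass (95% interval -0.08 to 0.25), and neither did F10 (0.04 ± 0.10) or Proc (-0.30 ± 0.11).

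Of 30 genes of hepatocyte plasma proteins, 26 fell (23 at equal totals) and 4 did not pass, with a median of -0.50 and every member below 0. Ahsg, fetuin A, had 44838, 37148 and 43515 with TNFa, against 77483, 78531 and 82051 with TGFb (log2 difference -0.93 ± 0.10, adjusted p = 2.5e-08). The alpha-1 antitrypsin copies Serpina1b, Serpina1c and Serpina1d differed by -0.70 ± 0.09, -0.69 ± 0.09 and -0.63 ± 0.09, and Serpina1e had 1245, 1001 and 1182 with TNFa, against 4319, 4551 and 4649.7 with TGFb (log2 difference -1.98 ± 0.12, adjusted p = 7.5e-13). These copies are nearly identical, so their separate values are uncertain. Lifr, the receptor of Lif, had 3111, 2912 and 2827 with TNFa, against 6020.0, 6648 and 5890.4 with TGFb (log2 difference -1.07 ± 0.09, adjusted p = 8.1e-10), so receptor and ligand were both lower with TNFa. Alb had 1390000, 1350000 and 1420000 with TNFa, against 1880000, 1810000 and 1920000 with TGFb, as deposited to 3 digits. Its groups were separate, and the difference of -0.43 ± 0.19 did not pass (adjusted p = 0.16). Ttr (transthyretin) and Apob did not pass (-0.35 ± 0.13 and -0.18 ± 0.11).

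Of 30 hepatocyte transcription factors, 4 fell, 1 rose (0 without TGFb WT 1 or TGFb WT 3 or TNFa WT 2 or TNFa WT 3, and 3 at equal totals) and 25 did not pass. The falls made up 13.3% and the rise 3.33% of the list, against 8.06% and 5.33% of all genes. Foxa3, a pioneer factor, had 630.0, 641 and 632 with TNFa, against 1216, 1136 and 1372 with TGFb (log2 difference -0.96 ± 0.14, adjusted p = 5.0e-06). Esr1, the estrogen receptor, had 357, 421 and 396 with TNFa, against 790.1, 616 and 839.7 with TGFb (log2 difference -0.93 ± 0.16, adjusted p = 8.4e-05), and Tef, a circadian PAR factor, differed by -0.64 ± 0.14. Hnf4a, the main regulator of hepatocyte identity, had 3971, 3553 and 4218 with TNFa, against 4321, 4797 and 4283 with TGFb and did not pass (95% interval -0.41 to 0.02). Nr3c1, the glucocorticoid receptor, and Onecut2 did not pass (0.01 ± 0.10 and -0.03 ± 0.10).

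Cytochrome P450s clear drugs, fatty acids and retinoic acid. Of 48 tested, 32 fell, 2 rose and 14 did not pass (median -0.60). Cyp2e1, which oxidizes ethanol, had 65960.5, 64442 and 63941 with TNFa, against 123246, 127408 and 117682 with TGFb (log2 difference -0.92 ± 0.09, adjusted p = 9.7e-09). Cyp1a2, which oxidizes caffeine, had 1404, 1249 and 1674 with TNFa, against 2719.6, 3095 and 2983 with TGFb (log2 difference -1.03 ± 0.10, adjusted p = 4.9e-09). In both enzymes the TNFa libraries were well below the TGFb libraries. Cyp26a1, which breaks down retinoic acid, had 272, 210.3 and 212 with TNFa, against 733, 898 and 665 with TGFb (log2 difference -1.72 ± 0.18, adjusted p = 3.1e-08). Cyp26b1, with the same role, had 59.0, 62.2 and 46.8 with TNFa, against 466, 389.9 and 233 with TGFb (log2 difference -2.63 ± 0.25, adjusted p = 5.1e-09). In these 4 enzymes the TNFa values were all lower. Cyp2j5 and Cyp4f14 differed by -0.91 ± 0.10 and -0.81 ± 0.09. Cyp3a13 rose instead, with 3187, 3553 and 3786 with TNFa, against 2689, 2462 and 2190.3 with TGFb (log2 difference 0.52 ± 0.10, adjusted p = 0.00021). Cyp51, Cyp2c69 and Cyp2c70 did not pass (0.10 ± 0.09, -0.22 ± 0.09 and -0.19 ± 0.11), and the Cyp2c genes have close copies.

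Conjugating enzymes followed with 21 falls and 3 rises of 42 (median -0.45). Sult2a8, a sulfotransferase, had 7306, 6818 and 7659.8 with TNFa, against 14415, 13549.6 and 14697 with TGFb (log2 difference -0.97 ± 0.12, adjusted p = 7.7e-07). Sult1d1 had 1944, 1779 and 1849.8 with TNFa, against 3483, 3948 and 3315 with TGFb (log2 difference -0.94 ± 0.12, adjusted p = 1.3e-06). Ugt3a2, a glycosyltransferase, had 10925, 9369 and 10653 with TNFa, against 16319, 16515 and 16242 with TGFb (log2 difference -0.67 ± 0.09, adjusted p = 1.1e-06). Ugt2b1 and Ugt2b34, of a family with close copies, differed by -0.78 ± 0.10 and -0.65 ± 0.08. Gsto1 and Ugt2b36 did not pass (-0.38 ± 0.16 and -0.30 ± 0.12). Among 29 bile acid genes, 18 fell, 1 rose (2 at equal totals) and 10 did not pass (median -0.56). Slco1b2, which takes up organic anions and bile acids, had 7904, 7692 and 7914 with TNFa, against 19593, 18895 and 19423 with TGFb (log2 difference -1.30 ± 0.08, adjusted p = 1.3e-12). Slc10a1 (NTCP), the main bile salt importer, had 660.3, 580.0 and 731 with TNFa, against 1208, 1327 and 1429 with TGFb (log2 difference -1.01 ± 0.14, adjusted p = 2.0e-06). Akr1d1, which reduces bile acid precursors, had 1006, 932 and 1097 with TNFa, against 1927, 2153 and 2002 with TGFb (log2 difference -1.004 ± 0.10, adjusted p = 7.9e-09). Each importer and enzyme named here had separate groups. Acox2, Scp2 and Slco1a4 differed by -1.24 ± 0.13, -0.83 ± 0.08 and -1.15 ± 0.10. The exporters Abcc2 and Abcc3 did not pass, with 95% intervals of -0.08 to 0.28 and 0.03 to 0.43.

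Of 31 genes of fatty acid oxidation, 20 fell (16 at equal totals) and 11 did not pass (median -0.47). Crot, a carnitine acyltransferase of peroxisomes, had 2775, 2648 and 2513 with TNFa, against 5576, 5095 and 4959 with TGFb (log2 difference -0.98 ± 0.08, adjusted p = 2.3e-10). Hadh, a mitochondrial dehydrogenase, had 4099, 3507 and 3856 with TNFa, against 6483, 7096 and 7241 with TGFb (log2 difference -0.86 ± 0.09, adjusted p = 1.6e-08). Ehhadh and Hacl1 differed by -0.77 ± 0.10 and -0.83 ± 0.10. Acaa2, Echs1 and Acadvl did not pass (-0.24 ± 0.10, -0.03 ± 0.09 and -0.29 ± 0.10). Of 28 genes of ketogenesis and PPARalpha, 14 fell, 3 rose and 11 did not pass (median -0.75). Pdk4, which spares glucose from oxidation, had 488, 439 and 572 with TNFa, against 974, 1118 and 1331 with TGFb (log2 difference -1.19 ± 0.13, adjusted p = 1.3e-07). Creb3l3, a liver activator of fasting genes, had 1173, 1191 and 1199 with TNFa, against 2156, 2604 and 2235 with TGFb (log2 difference -0.97 ± 0.12, adjusted p = 1.0e-06). The TNFa libraries were all below the TGFb libraries in both genes. Ppara itself had 743, 1081 and 1039.5 with TNFa, against 629, 739 and 834 with TGFb, with overlap, and did not pass (95% interval 0.06 to 0.68). Plin2, which coats lipid droplets, rose, at 6069, 6424 and 6595 with TNFa, against 4117, 4366 and 4150.1 with TGFb (log2 difference 0.59 ± 0.09, adjusted p = 1.1e-05).

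Of 31 genes of fatty acid and triglyceride synthesis, 6 rose, 9 fell and 16 did not pass, with a median of -0.11 (0.00 at equal totals). Of the desaturases, Scd1 had 77943, 80409.7 and 80619 with TNFa, against 127852, 126221 and 128138 with TGFb (log2 difference -0.68 ± 0.10, adjusted p = 1.6e-05), and Fads1 and Fads2, which desaturate polyunsaturated chains, differed by -0.71 ± 0.08 and -0.55 ± 0.09, while Scd2 did not pass (-0.38 ± 0.24). Elovl5, which elongates those chains, had 5658, 4863 and 5246 with TNFa, against 8601, 8275 and 7855 with TGFb (log2 difference -0.65 ± 0.09, adjusted p = 2.0e-06). Elovl6, which elongates saturated chains, went the other way, with 3561, 2789 and 3396 with TNFa, against 1385, 1551 and 1229.7 with TGFb (log2 difference 1.22 ± 0.10, adjusted p = 4.4e-10). Acly, Me1 and Dgat2 did not pass (0.15 ± 0.08, -0.04 ± 0.09 and 0.03 ± 0.10). Genes of cholesterol synthesis and uptake had 8 rises and 1 fall (0 without TGFb WT 3 or TNFa WT 1, and 0 at equal totals) of 27 and a median of 0.14. Lss, which closes the sterol rings, had 1752, 2163 and 2176 with TNFa, against 994, 1153 and 1265 with TGFb (log2 difference 0.84 ± 0.12, adjusted p = 6.9e-06). Fdps, which makes farnesyl diphosphate, had 8995, 10630.4 and 10476 with TNFa, against 5861, 5734 and 6157 with TGFb (log2 difference 0.76 ± 0.11, adjusted p = 3.4e-06). The lowest TNFa value of each was above its highest TGFb value. Hmgcs1 and Mvd differed by 0.43 ± 0.09 and 0.79 ± 0.18, while Idi1, Insig1 and Sc5d did not pass (0.21 ± 0.09, -0.10 ± 0.09 and -0.15 ± 0.09).

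Genes of the urea cycle and amino acid breakdown counted 26 falls of 38, 12 not passing and a median of -0.56. Arg1, the arginase of the urea cycle, had 1566, 1404 and 1220.4 with TNFa, against 2442, 2893 and 2391 with TGFb (log2 difference -0.88 ± 0.10, adjusted p = 8.8e-08). Cps1, its first enzyme, had 27043, 24414 and 26369.7 with TNFa, against 35923, 33621 and 36616 with TGFb (log2 difference -0.45 ± 0.09, adjusted p = 0.00038), and Ass1, the third, differed by -0.72 ± 0.10. Mat1a, which makes S-adenosylmethionine, had 9521, 9043 and 9723 with TNFa, against 17842, 17638 and 18259 with TGFb (log2 difference -0.93 ± 0.09, adjusted p = 5.0e-09). These enzymes were lower in each TNFa library than in any TGFb library. Glud1, glutamate dehydrogenase, had 13786, 11146 and 12724 with TNFa, against 21998, 21961 and 21699.8 with TGFb (log2 difference -0.81 ± 0.08, adjusted p = 9.8e-09). Tdo2, which opens the tryptophan ring, had 2748, 2356 and 2819.6 with TNFa, against 5144, 4985 and 5447 with TGFb (log2 difference -0.98 ± 0.09, adjusted p = 1.2e-09). Tat, which starts tyrosine breakdown, and Slc25a15, the ornithine carrier, differed by -0.86 ± 0.10 and -0.85 ± 0.08. All of these had separate groups. Asl, Cth and Slc25a13 did not pass (0.05 ± 0.12, 0.02 ± 0.08 and 0.07 ± 0.13). Arg1 and Arg2, the liver and the mitochondrial arginase, therefore differed in opposite directions.

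Of 30 genes of glucose production and glycolysis, 10 fell and 4 rose (2 without TNFa WT 3), with a median of -0.08 that was 0.04 at equal totals. Pck1, the enzyme that commits carbon to gluconeogenesis, had 2086, 1785 and 1953 with TNFa, against 3989, 4483 and 4461 with TGFb (log2 difference -1.15 ± 0.11, adjusted p = 2.8e-09). G6pc, which releases free glucose, had 567, 383 and 767 with TNFa, against 1109.7, 1038 and 1115 with TGFb (log2 difference -0.98 ± 0.17, adjusted p = 9.5e-05). The groups did not overlap in either gene. Slc2a2, the glucose carrier GLUT2, differed by -0.48 ± 0.09. Pklr, the liver pyruvate kinase of glycolysis, was higher with TNFa, with 1313, 1359 and 1495 with TNFa, against 769.7, 807 and 713 with TGFb (log2 difference 0.86 ± 0.13, adjusted p = 9.7e-06). Pfkfb3, an activator of glycolysis, fell with -0.58 ± 0.10. Eno1, Ldha and Aldoa did not pass (0.20 ± 0.10, -0.02 ± 0.09 and 0.17 ± 0.08).

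Zonal genes of both ends of the liver lobule were lower with TNFa where they passed. Of 19 periportal genes 11 fell (7 without TNFa WT 2, median -0.44), and of 18 pericentral genes 9 fell (median -0.72). Glul, glutamine synthetase of the cells around the central vein, had 884, 904 and 857 with TNFa, against 1791, 2211 and 1949 with TGFb (log2 difference -1.16 ± 0.11, adjusted p = 6.0e-09). Oat, its neighbour in that zone, had 1342, 1297 and 1244 with TNFa, against 2165, 2220.1 and 2372 with TGFb (log2 difference -0.80 ± 0.11, adjusted p = 1.7e-06). Pigr, which carries IgA, and Gls2, the periportal glutaminase, differed by -0.84 ± 0.10 and -0.51 ± 0.10. The Wnt regulators Znrf3 and Rnf43 did not pass (-0.27 ± 0.18 and 0.25 ± 0.23).

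**Figure D4:**
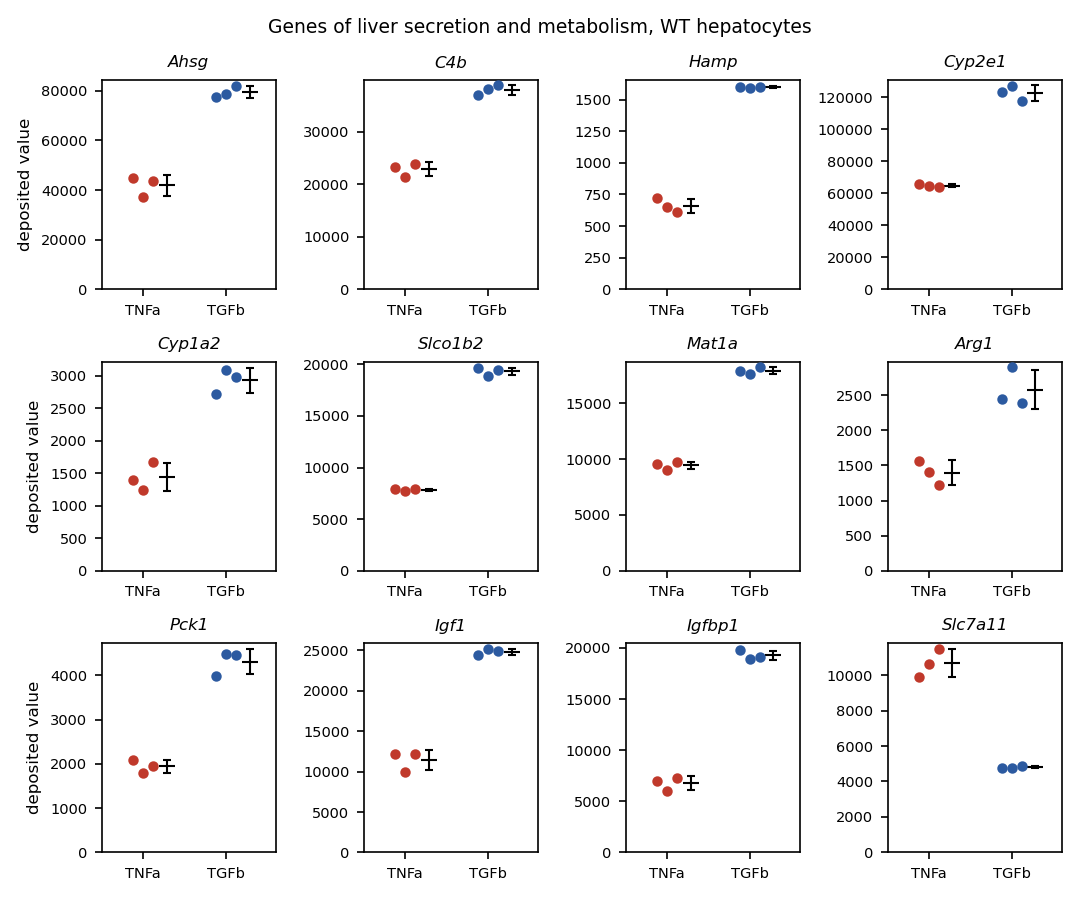
Normalized values of 12 genes of liver secretion and metabolism in WT hepatocytes, with each library as a point, TNFa in red on the left and TGFb in blue on the right, and bars for the mean ± SD (n = 3 each). Vertical axes start at 0. The panels lie lower with TNFa in 11 genes, without overlap, and Slc7a11 lies higher.

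Genes of iron handling and of the growth hormone axis were mostly lower with TNFa among those that passed. Hamp, hepcidin, which blocks iron export, had 723, 649.5 and 613 with TNFa, against 1602, 1589 and 1602 with TGFb (log2 difference -1.27 ± 0.10, adjusted p = 2.0e-10), and its TGFb libraries differed by less than 1% of their mean. Its close copy Hamp2 had 821, 586 and 598 with TNFa, against 992, 1177 and 864 with TGFb, so reads may have been split between the copies. Slc40a1, ferroportin, the exporter that hepcidin degrades, had 1616, 1244 and 1551 with TNFa, against 829, 831 and 819 with TGFb (log2 difference 0.82 ± 0.11, adjusted p = 1.6e-06). Tfr2 and Tmprss6, which sense and tune iron signals, differed by -0.63 ± 0.13 and -0.62 ± 0.10. Hmox1, Ftl1 and Neo1 did not pass (-0.06 ± 0.08, 0.13 ± 0.10 and -0.08 ± 0.09). Of 20 iron genes 7 fell and 3 rose. In the growth hormone and IGF axis 9 of 21 fell and 2 rose (1 without TGFb WT 1 or TNFa WT 1 or TNFa WT 2, and 4 at equal totals, median -0.25). Igf1, which the liver sends into blood, had 12165, 10002 and 12232 with TNFa, against 24454, 25118 and 24886 with TGFb (log2 difference -1.12 ± 0.09, adjusted p = 2.7e-10). Igfbp1, its binding protein, had 6973, 6049.5 and 7320.3 with TNFa, against 19788, 18891 and 19085 with TGFb (log2 difference -1.51 ± 0.11, adjusted p = 1.1e-11). Cish, a target of STAT5, had 610.4, 588 and 673 with TNFa, against 1603, 1265 and 1633 with TGFb (log2 difference -1.26 ± 0.15, adjusted p = 2.7e-07). These 3 genes were separated between the groups as well. Prlr, the prolactin receptor, had 2735, 2275 and 2778 with TNFa, against 4456, 4457 and 4554 with TGFb (log2 difference -0.80 ± 0.09, adjusted p = 1.9e-07). All TNFa libraries lay below all TGFb libraries in these 4. Insr, Igf2r and Erbb3 did not pass (0.02 ± 0.08, 0.19 ± 0.10 and -0.25 ± 0.11).

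Genes of the NRF2 response to oxidants counted 10 rises and 3 falls of 26 (median 0.24). Slc7a11, the cystine importer, had 9911, 10622 and 11474 with TNFa, against 4770.4, 4786 and 4885 with TGFb (log2 difference 1.15 ± 0.11, adjusted p = 5.6e-09). Txnrd1, thioredoxin reductase, had 13575, 14426 and 13500 with TNFa, against 7222, 7518 and 7785 with TGFb (log2 difference 0.88 ± 0.08, adjusted p = 9.0e-10). Gclc, which starts glutathione synthesis, had 25542, 25137 and 24697 with TNFa, against 15892, 16597 and 17339 with TGFb (log2 difference 0.60 ± 0.09, adjusted p = 1.4e-05). Srxn1 and Pgd differed by 0.63 ± 0.08 and 0.76 ± 0.09. The TNFa libraries were all higher in these 5 genes. Cat, catalase, was lower, with 8589, 8414 and 8583 with TNFa, against 12964, 12865 and 12209 with TGFb (log2 difference -0.57 ± 0.09, adjusted p = 1.3e-05), and Gsr and Prdx1 did not pass (0.22 ± 0.09 and 0.38 ± 0.14). Slc7a2, a carrier of arginine and lysine outside these lists, had 13650.4, 13856 and 15054 with TNFa, against 4846, 4793 and 5516 with TGFb (log2 difference 1.49 ± 0.08, adjusted p = 1.6e-13).

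Chaperones of the endoplasmic reticulum and enzymes of serine synthesis, on 1 list of protein and amino acid stress, differed in direction (3 rises and 7 falls of 29). Hyou1, Dnajc3 and Edem1 fell with -0.61 ± 0.11, -0.62 ± 0.10 and -0.51 ± 0.09, while Psat1 and Phgdh rose by 0.55 ± 0.09 and 0.68 ± 0.13. Ddit4, an inhibitor of mTORC1, had 1237, 1098 and 1223 with TNFa, against 2228, 2244 and 2379.7 with TGFb (log2 difference -0.95 ± 0.16, adjusted p = 8.5e-05). Hspa5 and Atf4 did not pass (-0.21 ± 0.08 and -0.00 ± 0.08). Of 29 AP-1 and immediate-early genes 8 fell (5 without TGFb WT 2 or TNFa WT 2) and 3 rose (1 without TNFa WT 3), against 4 and 4 at equal totals. Dusp6, a phosphatase that ERK induces, had 2627, 3008 and 3037 with TNFa, against 1564, 1680.0 and 1585 with TGFb (log2 difference 0.84 ± 0.10, adjusted p = 5.7e-07), while Atf3, Fosb and Klf10 fell with -0.56 ± 0.12, -0.80 ± 0.19 and -0.52 ± 0.12. Fosl2, Zfp36 and Zfp36l1 did not pass (-0.21 ± 0.08, 0.15 ± 0.11 and -0.12 ± 0.10).

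Growth arrest genes were mixed. Of 24 genes of p53 and arrest, 7 fell (4 at equal totals), 2 rose (3 at equal totals) and 15 did not pass (median -0.21). Cdkn1a (p21), which both p53 and TGF-beta induce, had 4019, 3509.9 and 4067 with TNFa, against 5138, 5378 and 5141 with TGFb (log2 difference -0.44 ± 0.10, adjusted p = 0.0029). Cdkn1b (p27), a related inhibitor, had 1445, 1549 and 1566 with TNFa, against 2470.4, 2423 and 2253 with TGFb (log2 difference -0.65 ± 0.11, adjusted p = 4.8e-05). Plk2, a stress kinase, rose, at 3539.6, 4405 and 4226 with TNFa, against 1901, 2155 and 1819 with TGFb (log2 difference 1.05 ± 0.09, adjusted p = 1.7e-09), while Plk3, its relative, fell with -0.95 ± 0.18. Trp53 itself differed by 0.54 ± 0.12. Of 36 genes of the cell cycle and replication, 5 rose (1 without TNFa WT 3 and 2 without TGFb WT 1 and 3 without TNFa WT 1 or TNFa WT 2) and 3 fell. These were 13.9% and 8.33% of the list, against 5.33% and 8.06% of all genes, so the falls were near the share of all genes. The replication genes Mcm3 and Mcm6, parts of the same helicase, differed in opposite directions, by 0.90 ± 0.18 and -0.79 ± 0.15. Myc, Cdk6 and Rrm2 did not pass (0.18 ± 0.11, 0.22 ± 0.09 and -0.12 ± 0.09). Of 28 genes of apoptosis and death signaling, 3 rose, 1 fell and 24 did not pass. The rises were 0 without TGFb WT 3 or TNFa WT 3 and 6 at equal totals, and the falls were 2 without TGFb WT 3. The rises made up 10.7% and the fall 3.57% of the list, against 5.33% and 8.06% of all genes. Bcl2l11 (BIM), which promotes apoptosis, had 577, 560.2 and 403 with TNFa, against 914, 866 and 886 with TGFb (log2 difference -0.81 ± 0.16, adjusted p = 0.00034), and Mcl1, Xiap and Bcl2l1, which oppose it, did not pass (-0.07 ± 0.11, -0.16 ± 0.11 and -0.02 ± 0.12).

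With limma, 0 of 45 cytosolic ribosomal protein genes passed in either direction, with 4 higher and 1 lower at an unadjusted p below 0.05 and a median of 0.07 (1 without TGFb WT 1 or TGFb WT 2, and 4 higher at equal totals). Of 13 mitochondrially encoded genes 0 passed with limma (1 without TNFa WT 3), and 0 had an unadjusted p below 0.05, although their median was -0.26. Their spread was wide and TNFa WT 2 was low, as in mt-Co1, a subunit of cytochrome oxidase, with 310585, 164040 and 324564 with TNFa, against 296592, 329397 and 248664 with TGFb (95% interval -0.63 to 0.26). Of 32 nuclear genes of the respiratory chain 31 did not pass, with a median of -0.08 that was 0.03 at equal totals.

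**Figure D5:**
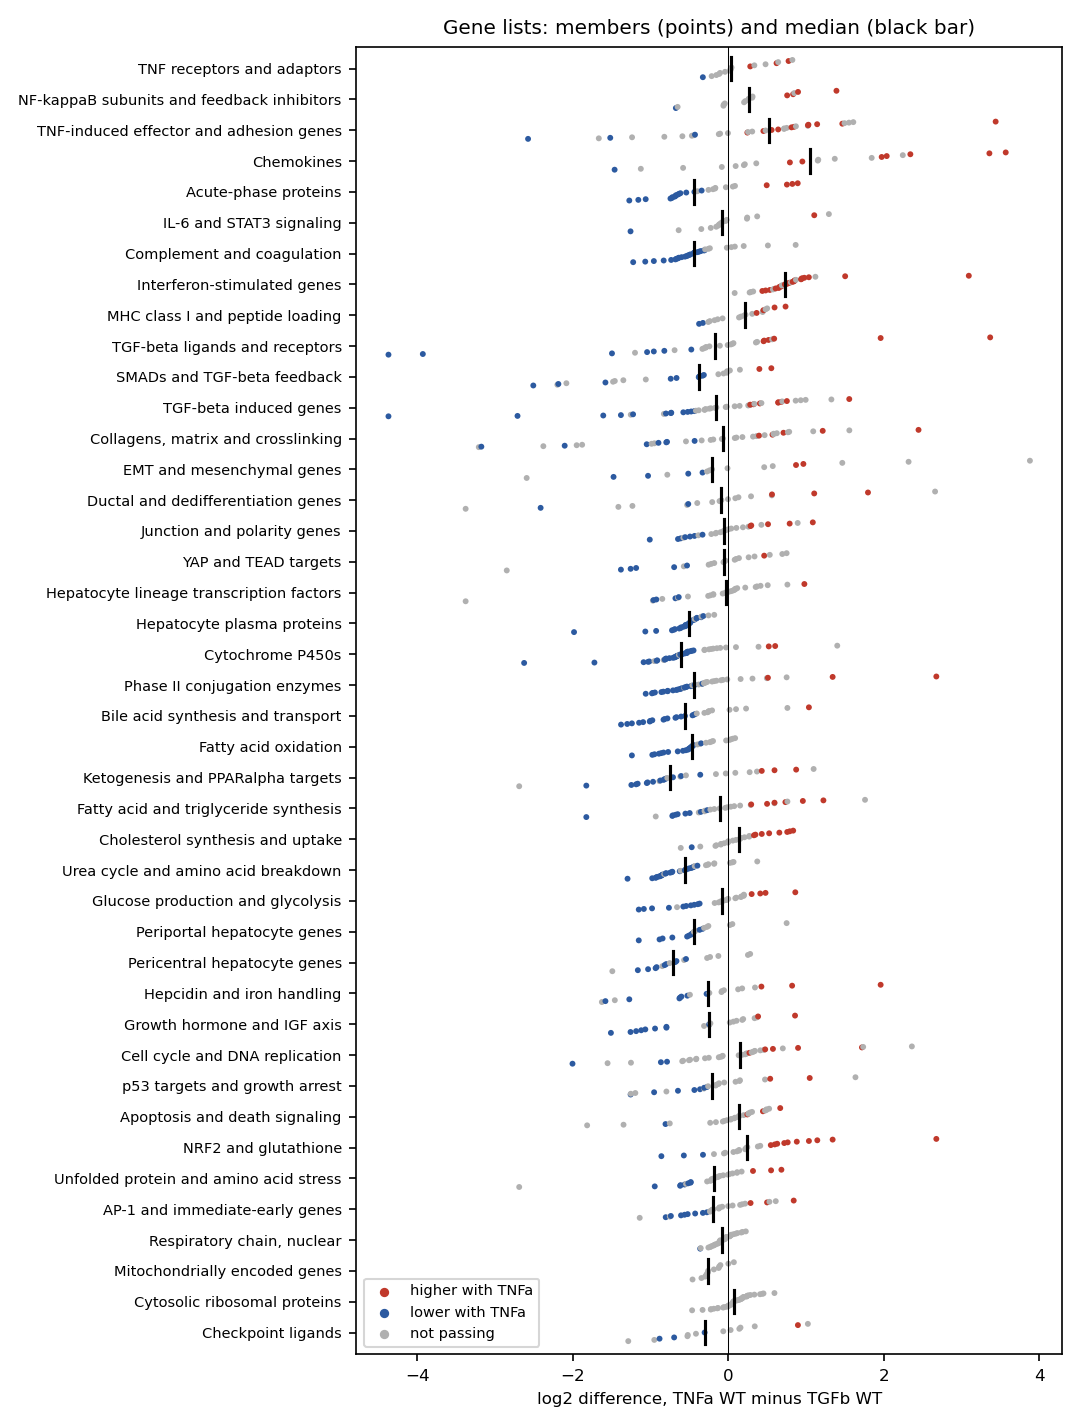
Each row is a gene list and each point a tested member, placed by its fitted log2 difference, TNFa WT minus TGFb WT, on the horizontal axis, with the list median as a black bar. Red points rose with TNFa, blue points fell and grey points did not pass. The median is 1.05 in chemokines and 0.73 in interferon-stimulated genes, and -0.75 in ketogenesis and PPARalpha targets and -0.72 in pericentral genes.

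The conditioned medium libraries of the same genotype give a further point of description, though they are a treated group and no control. Ccl2 had 1849, 1398 and 2051 with CM, between the TNFa and TGFb libraries. Tgfbr1 had 6142, 5353 and 5709, Cldn4 2785, 2395 and 2689, Pmepa1 209, 238 and 247 and Hamp 1525, 1599.6 and 1645 with CM. Of the 771 genes that rose with TNFa against TGFb, the mean log2 value with CM was nearer to TNFa for 484 and nearer to TGFb for 287. Of the 1165 that fell, it was nearer to TNFa for 492 and nearer to TGFb for 673. These genes were chosen on the same TNFa and TGFb libraries, and the share over all genes is not given. The counts therefore do not say which cytokine CM resembled.

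Genes called in WT mostly had the same direction in the same contrast of KO hepatocytes, which uses other libraries. In KO 1458 genes (10.1%) rose and 1779 (12.3%) fell. Rises in both genotypes numbered 502, which is 65.1% of the WT and 34.4% of the KO rises, and falls in both numbered 909, which is 78.0% of the WT and 51.1% of the KO falls. Of the WT rises 723 had the same sign in KO, and of the WT falls 1126. The share of all tested genes with the same sign is not given here. Across 14455 genes Pearson's r between the WT and KO differences was 0.39 and Spearman's rho 0.42, as a description.

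The difference between the WT and KO contrasts was tested as an interaction, and 159 genes (1.1%) passed, 123 with a WT contrast above the KO contrast and 36 below it. The count was 62 without TGFb KO 1, 69 without TGFb WT 1, 71 without TNFa WT 1, 78 without TNFa WT 3, 83 without TGFb WT 3, 87 without TGFb WT 2, 97 without TGFb KO 3 and 286 without TGFb KO 2. At equal totals 42 genes were above and 101 below, so the balance of directions turned with the scaling. For 140 of the 159 genes the absolute difference was larger in KO. Slc7a2 was the exception with the smallest p, since TNFa against TGFb differed by 1.49 ± 0.08 in WT and 0.20 ± 0.08 in KO (interaction 1.30 ± 0.12, adjusted p = 1.4e-07). Pklr differed by 0.86 ± 0.13 in WT and -0.17 ± 0.13 in KO (interaction 1.03 ± 0.18, adjusted p = 0.0034). Aldh1a1, a retinal dehydrogenase, did not pass in WT (-0.14 ± 0.09) and differed by -1.23 ± 0.09 in KO (interaction 1.09 ± 0.12, adjusted p = 6.8e-06). Lpin1, a phosphatidate phosphatase, likewise had -0.01 ± 0.11 in WT and -1.09 ± 0.11 in KO (interaction 1.07 ± 0.16, adjusted p = 0.00047). Slc40a1 and Gclc rose in both genotypes and more in KO, with 1.76 ± 0.11 and 1.46 ± 0.09 there (interactions -0.94 ± 0.15 and -0.86 ± 0.13). These 6 genes stayed past the threshold of the interaction in each of 21 alternatives.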

How the data were processed

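RNA of 18 hepatocyte libraries was measured by sequencing, after removal of ribosomal RNA per the labels' protocols. The deposited values are a signal per gene, read counts scaled by the authors with DESeq2, and reads were aligned with STAR 2.7.8a to the mm39 build in Partek, per the submitters' processing notes. No settings or annotation are stated there. The table lists 16873 protein-coding genes, of which 48 were at 0 in every library, and 23 rows carry a symbol listed more than once. The highest values, as of Alb, are written with 3 digits. Because the values were scaled across libraries on the assumption of a common middle, they show relative and not absolute amounts, and they carry no correction for gene length, so levels were not compared between genes. Low values were close to whole multiples of a step in 81.7% to 83.3% of cases (within 0.05 of a read, up to 20 reads), which was too few to recover counts, so no count model was used. The step gave the estimated reads per library.

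A gene was tested if 3 or more of the 18 libraries had 10 or more. Values were transformed as log2(value + 1), which understates changes of low genes. They were fitted with limma 3.58.1 (R 4.3.3, trend on) with 6 group means over the 18 libraries, so all groups shared 1 estimate of the spread. For each gene this estimate was drawn towards the trend over all genes (12 residual and 17 prior degrees of freedom). Adjusted p-values are Benjamini-Hochberg over 14455 genes, with a threshold of 0.05, two-sided. Fold changes are on the log2(value + 1) scale, and ratios of means on the deposited values. On simulated data the fit called 52 of 100 genes changed by 1 log2, 70 of 100 changed by 2 log2 and 5 of 14255 unchanged genes. The simulated noise was normal and set by the mean level alone, without differences in depth or a spread particular to each gene. These counts therefore check the fit and are no error rates of the real data. Alternatives changed the pseudocount, filter, scaling, libraries fitted and replicate block. Python 3.11.15 (pandas 2.3.3, NumPy 2.4.6) made the tables, and matplotlib 3.10.9 the figures.

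Genes were named by a rule. It took up to 20 of the largest rises and 20 of the largest falls without overlap and with a mean of at least 50, all tested members of the TNF receptor, NF-kappaB, chemokine, TGF-beta receptor and SMAD lists, and up to 6 called members by p and 3 members not called by mean from each other list. It also took the 10 smallest p-values of the difference between WT and KO contrasts. Called members were thus chosen on the same values that are printed, so their separation between the groups was nearly fixed by that choice. Genes named outside it are marked where they stand, Pkp2, Scd2, Pdlim7, Tagln, Tpm1, Tpm2 and Cnn2 were also chosen after their values were seen, and some genes it took are not reported here. The groups compared, the members and the lists were chosen with earlier results of these data known. RefSeq promoters matched 77.2% of tested genes, below the 80% needed, so the share of genes with a motif was not compared between groups.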

Additional observations from a re-analysis of the deposited data

Results flagged for a closer look

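For 36 of the described genes the TNFa against TGFb difference passed limma's interaction test between WT and KO hepatocytes at an adjusted p below 0.05. The contrast took in 3 libraries in each of 4 groups. Over all 14455 genes, 159 (1.1%) passed. The naming rule took the 10 smallest p-values of this test, so part of the 36 was fixed by that choice. Values are the WT contrast minus the KO contrast on the log2 scale, so a value above 0 means a higher or less negative difference in WT. Of the 36 genes, 16 kept the call in all of 21 alternatives, while Amotl2 kept it in 10, Crot and Tnfaip3 in 9, and Sod2, F5 and Igfbp4 in 8.

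Only genes that passed are sorted here, so the groups do not describe whole pathways, and over all genes the balance of directions turned with the scaling. Among those that passed, genes of fatty acid and lipid handling lay above 0, while the described lipid genes Scd1, Hadh, Ehhadh, Fads1 and Elovl5 did not pass. The interaction was 1.07 for Lpin1, 0.95 for the fatty acid binding protein Fabp5, 0.84 for Acaa2, 0.68 for Echs1, 0.77 for Dgat2 and 0.44 for Crot. Genes of amino acid and urea metabolism did as well, with 1.30 for Slc7a2, 0.84 for the amino acid carrier Slc38a4, 0.65 for Slc25a15, 0.76 for Slc25a13, 0.61 for Cps1, 0.79 for Asl, 0.54 for Cth and 0.65 for Gls2. Other genes of liver metabolism and secretion followed, with 1.09 for Aldh1a1, 0.92 for Cyp3a13, 0.51 for Cyp4f14, 1.03 for Pklr, 0.74 for F10, 0.46 for F5, 0.90 for Ttr, 0.71 for Igfbp2 and 0.51 for Igfbp4. Inflammatory genes above 0 were Tnfaip3 at 0.55, Sod2 at 0.53 and Iigp1 at 0.79.

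The remaining genes lay below 0. Oxidant response genes had -0.86 for Gclc, -0.77 for Slc7a11 and -0.49 for Txnrd1. Slc40a1 had -0.94, Tgfbr1 -0.57, Col15a1 -1.37, Parp14 -0.76, Ahnak -0.85, Ezr -0.59 and Amotl2 -0.60. In WT Tgfbr1 and Col15a1 were lower with TNFa, with differences of -1.50 ± 0.08 and -3.18 ± 0.21, against -0.93 ± 0.08 and -1.81 ± 0.21 in KO.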

How the results depend on the processing

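Of 277 called genes among those described or held ready by the naming rule, 221 stayed past the threshold in every alternative and 0 changed sign. The 771 higher and 1165 lower calls became 1366 and 873 at equal totals, 873 and 1040 with quantile normalization, 775 and 1159 with median-of-ratios scaling recomputed, 762 and 1160 with a pseudocount of 0.5, 773 and 1177 with 5, 722 and 1113 without a filter, 781 and 1182 with a mean of at least 50 and 703 and 1092 with the 6 libraries alone. Leaving out 1 library gave 542 to 651 higher and 942 to 1043 lower calls, and without TNFa WT 2 32 of the 277 genes lost their call, the most of any library. The 159 calls of the difference between WT and KO became 105 without a filter and 62 to 286 with 1 library left out; the cause was not tested. Krt18, at -0.00 ± 0.10 log2 and not called, was at 0.33 with quantile normalization (adjusted p = 0.027), and the cause was not tested. Deviations of TNFa and TGFb libraries with the same replicate number correlated at 0.020, -0.012 and 0.011, and with different numbers at -0.023 to 0.011. The main fit therefore did not pair the libraries. Such correlations cannot show whether libraries with the same number shared a mouse or preparation. A replicate block of genotype and number gave 776 higher and 1172 lower calls and 169 for the difference between WT and KO, and in the 6 libraries alone the block gave 539 and 903. Depth is known only as an estimate, so no counting intervals were given, and genes with values near 10 rest on few reads.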

Other observations

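Gene families grouped by the stem of their symbol have no test of their own. Those given here are some of the stems with at least 15 tested genes, and no rule set beforehand chose them. Of 280 solute carriers (Slc) 22 rose with TNFa and 45 fell, against 5.33% and 8.06% of all genes. Of 19 major urinary proteins (Mup), secreted carriers of pheromones, 10 fell and 0 rose with limma, and of 18 Ugt and 18 Serpina genes 10 each fell. These families hold near-identical copies, and how their reads were assigned is not known here. Of 47 Trim genes, many of which act in antiviral defense, 7 rose and 1 fell, and of 17 Ifi genes 6 rose. Of 20 C-type lectins (Clec) 4 rose and 1 fell, and of 16 matrix metalloproteinases (Mmp) 3 rose. Of 26 Sec genes, which include the coat and channel of the secretory route, 6 fell and 1 rose. Kupffer cell and macrophage markers, given with the chemokines, summed higher with TNFa, though 17 of 23 tested did not pass, and their part in the Clec and Mmp values was not tested.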
